A study of Mus musculus with 9 samples.

Results

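Calca, Penk, Pcsk1, Ramp1 and Ednrb encode parts of peptide signalling systems better known from nerves, endocrine glands and blood vessels, and they are described here in regulatory T cells (Tregs). These 5 genes, of 23420 in the expression table, were taken by symbol over all 9 libraries. They were picked because their level in synovial Tregs was already known to be high, so the values that set synovium apart are given as a description and carry no test for these genes. RNA was sequenced from Tregs sorted by a YFP reporter of Foxp3, the transcription factor that marks Tregs, after digestion of paws and draining lymph nodes. Synovial Tregs came from mice with collagen-induced arthritis, a joint disease provoked by immunisation with collagen (synovium, n = 3). Draining-node Tregs came from mice with the same treatment (arthritic node, n = 3) and from mice with no treatment (control node, n = 3). All mice were labelled wild type (WT) apart from the reporter on which the sort relied, and the sample titles number the synovial and arthritic-node libraries by the same 3 mice. The labels used here give neither age nor sex.

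Peptide hormones and neuropeptides are made as long precursors that are cut at pairs of basic residues inside the secretory pathway. Calca encodes the precursor of calcitonin and, by alternative splicing, of calcitonin gene-related peptide (CGRP), a vasodilator released by sensory nerves that also acts on immune cells. Penk encodes proenkephalin, the precursor of the opioid enkephalins, and Pcsk1 encodes prohormone convertase 1/3, a protease that cuts such precursors. Ramp1 encodes the accessory subunit that, together with the receptor Calcrl, forms the CGRP receptor, which signals through cyclic AMP (cAMP). Ednrb encodes the endothelin B receptor, known from endothelium, enteric neurons and melanocytes.

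The proenkephalin message is shown for the repeated opioid core it encodes. The Penk coding sequence of 804 bases held 7 copies of the codons for tyrosine, glycine, glycine and phenylalanine, the shared core of the enkephalins, and all 7 followed a pair of codons for basic residues. The stretch printed here covers coding bases 403 to 702 and holds 4 of the copies, in capitals, on the minus strand at chr4:4133944-4134243 (GRCm38, GENCODE vM21 annotation).
Penk: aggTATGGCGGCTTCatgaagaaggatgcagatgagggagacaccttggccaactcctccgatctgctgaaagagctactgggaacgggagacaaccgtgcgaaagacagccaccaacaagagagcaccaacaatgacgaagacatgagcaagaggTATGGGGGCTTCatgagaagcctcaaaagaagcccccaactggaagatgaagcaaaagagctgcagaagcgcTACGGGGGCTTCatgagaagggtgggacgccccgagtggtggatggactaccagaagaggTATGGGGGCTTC

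The promoter windows are shown because 1 short motif was shared by them. Of the 5 genes, 4 had an entry among the RefSeq promoters (GRCm38.p6), each a window of 300 bases with 250 bases before and 50 bases after the annotated start. The cAMP response element, TGACGTCA, and its half-site, TGACG, were searched on both strands, and the full element overlaps its own half-sites. The choice of motif was made with these sequences in view. The half-site was present in 4 of 4 windows, against 20.8% of 32851 promoter windows, and the full element in 1 of 4, against 1.79%. The AP-1 letters TGANTCA were found in 0 of 4, against 7.81%. Capitals mark the motif letters; in Ramp1 they read on the opposite strand.
Calca, chr7:114636308-114636607, minus strand: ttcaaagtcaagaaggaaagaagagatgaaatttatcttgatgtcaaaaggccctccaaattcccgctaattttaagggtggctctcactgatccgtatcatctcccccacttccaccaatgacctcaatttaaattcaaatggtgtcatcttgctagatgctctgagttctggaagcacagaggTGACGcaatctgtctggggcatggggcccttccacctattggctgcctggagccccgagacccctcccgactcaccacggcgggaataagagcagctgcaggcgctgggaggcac
Pcsk1, chr13:75089607-75089906, plus strand: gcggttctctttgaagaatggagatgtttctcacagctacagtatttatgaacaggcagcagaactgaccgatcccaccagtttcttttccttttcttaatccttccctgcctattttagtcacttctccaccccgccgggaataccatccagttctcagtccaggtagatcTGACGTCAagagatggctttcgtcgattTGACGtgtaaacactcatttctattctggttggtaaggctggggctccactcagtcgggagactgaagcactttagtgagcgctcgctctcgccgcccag
Ramp1, chr1:91179572-91179871, plus strand: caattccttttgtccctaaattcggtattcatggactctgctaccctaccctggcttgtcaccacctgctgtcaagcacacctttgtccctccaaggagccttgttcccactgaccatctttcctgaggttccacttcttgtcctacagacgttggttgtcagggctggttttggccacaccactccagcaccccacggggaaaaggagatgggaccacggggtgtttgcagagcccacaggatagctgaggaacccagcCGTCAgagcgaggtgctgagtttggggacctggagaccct
Ednrb, chr14:103843652-103843951, minus strand: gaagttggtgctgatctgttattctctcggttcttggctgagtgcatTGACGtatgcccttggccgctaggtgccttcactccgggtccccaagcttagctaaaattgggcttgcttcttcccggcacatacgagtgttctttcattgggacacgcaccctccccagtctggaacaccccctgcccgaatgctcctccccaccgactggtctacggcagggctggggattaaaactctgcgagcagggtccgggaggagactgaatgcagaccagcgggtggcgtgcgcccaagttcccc

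The Calca half-site began 65 bases before the start, and the Ednrb half-site 203 bases before it. In Pcsk1 the full element began 78 bases before the start, with a further half-site at 50 bases. The Ramp1 half-site lay 11 bases past the start. A match of letters is a description of the sequence and says nothing of binding.

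**Figure D1:**
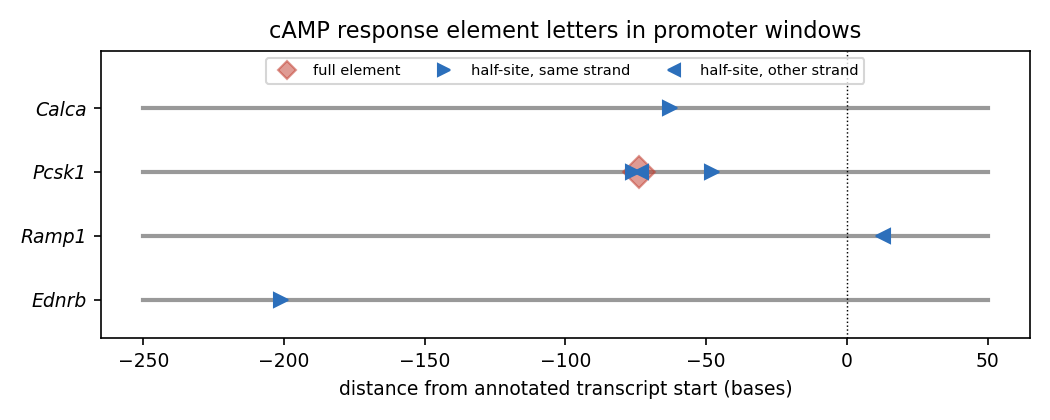
Positions of the cAMP response element letters in 4 promoter windows, as distance in bases from the annotated transcript start (dotted line). Diamonds mark the full element and triangles the half-sites by strand; Pcsk1 alone of the 4 has the full element, and every window has at least 1 half-site.

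The libraries were alike in depth and differed mostly by tissue. They held 11300406 to 12855435 assigned reads, and 3 reads, taken as the limit that a count of 0 allows, equalled 2.61 to 3.52 normalized counts. The first principal component, with 53.1% of the variance, separated the synovial libraries from the node libraries, and on the second, with 10.9%, control node library 1 stood apart at 83.5 against -41.4 to 18.8 for the other libraries. All 10 Treg markers were above that limit in all 3 synovial libraries, where their summed level was 171840 to 182860 normalized counts, against 91086 to 104604 in node libraries. By limma over arthritic node, Il2ra, Ctla4, Ikzf2, Ikzf4 and Tnfrsf18 were called higher, Lck was called lower and 4 of the 10 were not called. Foxp3, among those not called, was at 443, 413 and 538 normalized counts in synovial Tregs and at 222, 294 and 291 in arthritic-node Tregs. In control-node Tregs Foxp3 was at 224, 170 and 404, and over control node it was called higher. Summed fibroblast markers reached 4502 normalized counts in synovial library 3, above the 979 to 1428 of the nodes, with synovial libraries 1 and 2 below the nodes. Most of the sum in nodes was Prg4, which fell in synovium, while Fn1 was at 65.0, 45.8 and 1239 in synovium and 0 to 26.2 in nodes, and Sparc at 44.1, 71.6 and 768 in synovium and 0 to 44.6 in nodes, both called higher over arthritic node by limma.

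All 5 genes were higher in every synovial library than in any node library, the arrangement of 20.6% of the 11357 genes tested, a share given as background from which nothing is read, because these genes were chosen on that contrast. Ednrb, Calca and Pcsk1 were at or near no reads in nodes, whereas Penk and Ramp1 were already abundant there. Counts below are normalized counts, that is reads divided by a size factor of each library, and log2 fold changes are of the normalized count plus 1. In bulk RNA, fewer cells carrying a message and less message per cell cannot be told apart.

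**Figure D2:**
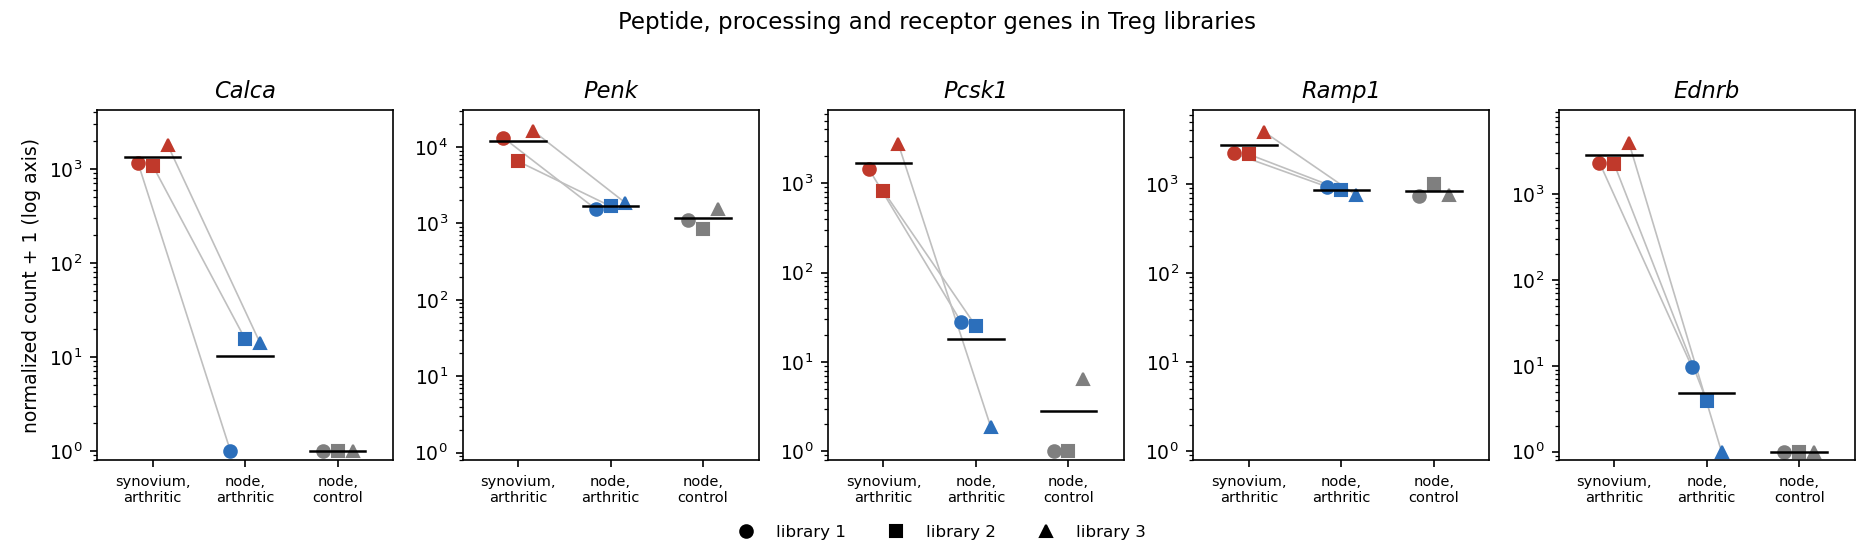
Normalized count plus 1 on a log axis for each gene in the 9 Treg libraries, from synovium and node of arthritic mice and node of control mice; bars are group means and grey lines join libraries numbered by the same mouse. All synovial points lie above all node points in every panel, and node points of Calca, Pcsk1 and Ednrb lie near the bottom of the axis.

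Among the peptide precursors, Calca (chr7:114631478-114636357, minus strand, GRCm38) had 1165, 1083 and 1808 normalized counts in synovial Tregs, against 0, 14.4 and 13.1 in arthritic-node Tregs and 0 in all 3 control-node libraries. Synovial libraries together held 3588 Calca reads, while arthritic nodes held 30 reads from 2 of 3 mice. The mean was 1352 ± 397 in synovium and 9.18 ± 7.98 in arthritic node (SD, n = 3 each), a log2 fold change of 7.77 ± 0.97 (SE). Without arthritic-node library 1, the library with no read, it was 6.48. Against control node the synovial mean was at least 479-fold higher, taking 3 reads per library for the control. Gene-level counts do not separate the calcitonin and CGRP transcripts, so which of them was present was not measured.

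Penk (chr4:4133531-4138819, minus strand) was the most abundant of the 5 genes per length in all 3 groups. It stood at 13274, 6509 and 16409 normalized counts in synovial Tregs, 1544, 1682 and 1861 in arthritic-node Tregs, and 1108, 840 and 1537 in control-node Tregs. Synovial library 2 was the lowest of its group and still above every node library. The mean was 12064 ± 5060 in synovium and 1695 ± 159 in arthritic node (SD, n = 3 each), which gave a log2 fold change of 2.73 ± 0.29 (SE). Within mice, synovium exceeded the node of the same number 8.60-fold, 3.87-fold and 8.82-fold. Exons of Penk overlap A830012C17Rik on the other strand; the library kit keeps strand, but the strand setting of the counting is not given in the sources used here, so a share of these reads could belong to that gene.

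Pcsk1 (chr13:75089826-75134861, plus strand), the precursor-cutting protease, had 1451, 811 and 2759 normalized counts in synovial Tregs, against 27.0, 24.1 and 0.874 in arthritic-node Tregs and 0, 0 and 5.48 in control-node Tregs. In the arthritic node it rested on 31, 25 and 1 reads, so mouse 3 had the highest synovial and the lowest nodal value. The mean was 1674 ± 993 in synovium and 17.3 ± 14.3 in arthritic node (SD, n = 3 each), a log2 fold change of 7.08 ± 1.07 (SE). It was 5.81 without arthritic-node library 3. In synovium, Pcsk1 varied most of the 5 genes, with a highest value 3.40 times the lowest, while Calca varied least, at 1.67 times.

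Ramp1 (chr1:91179822-91225196, plus strand), the CGRP receptor subunit, was the gene of the 5 with the smallest difference. Its level was 2197, 2148 and 3869 normalized counts in synovial Tregs, 933, 859 and 749.5 in arthritic-node Tregs, and 734, 988 and 747 in control-node Tregs. The node groups overlapped, and synovial libraries 1 and 2 were near each other with library 3 above. The mean was 2738 ± 980 in synovium and 847 ± 92.4 in arthritic node (SD, n = 3 each), a log2 fold change of 1.64 ± 0.22 (SE), and 1.36 without synovial library 3. The ratio of synovium to the node of the same number was 2.35, 2.50 and 5.16.

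Ednrb (chr14:103814625-103844402, minus strand), the endothelin B receptor, had the widest separation. It was at 2325, 2226 and 3921 normalized counts in synovial Tregs, against 8.70, 2.89 and 0 in arthritic-node Tregs and 0 in all 3 control-node libraries. The arthritic nodes held 13 reads in sum, against 7495 in synovium. The mean was 2824 ± 951 in synovium and 3.86 ± 4.43 in arthritic node (SD, n = 3 each), with a log2 fold change of 9.67 ± 0.82 (SE). The value was 10.43 without arthritic-node library 1 and 8.80 without arthritic-node library 3. Against control node the synovial mean was at least 1002-fold higher, again at 3 reads per library.

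The same synovial libraries were also set against control node. Penk averaged 12064 normalized counts in synovium and 1161 in control node, a log2 fold change of 3.32 ± 0.29 (SE). Ramp1 averaged 2738 in synovium and 823 in control node, 1.69 ± 0.22 on the same scale. Pcsk1 averaged 1674 in synovium and 1.83 in control node, where it rested on 6 reads from 1 library. Because the synovial libraries are shared, these values are not separate evidence.

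The authors' deposited table of synovium over arthritic node gave log2 fold changes of 7.19 for Calca, 2.81 for Penk, 6.57 for Pcsk1, 1.67 for Ramp1 and 9.49 for Ednrb. The lfcSE of Ednrb in the authors' deposited table was 0.94. The order of the 5 genes by size of difference was the same as here. That table rests on the same synovial and arthritic-node libraries, so the shared order is not separate evidence.

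Levels of different genes were compared per kilobase of exon. In synovium Penk led with 7383 ± 3097 normalized counts per kilobase (mean ± SD, n = 3), followed by Ramp1 with 906 ± 324, Calca with 803 ± 236, Ednrb with 662 ± 223 and Pcsk1 with 299 ± 177. Ramp1, Calca and Ednrb lay within each other's spread. In arthritic node the order was Penk at 1038 ± 97.3, Ramp1 at 280 ± 30.6, Calca at 5.45 ± 4.74, Pcsk1 at 3.09 ± 2.55 and Ednrb at 0.905 ± 1.04. Calca, Pcsk1 and Ednrb again overlapped, so that in nodes only Penk and Ramp1 stood clear. In control node Penk was at 711 ± 215 and Ramp1 at 272 ± 47.3, with Pcsk1 at 0.326 ± 0.564 and no read of Calca or Ednrb.

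Within the synovium the 5 genes ranked the libraries alike. Library 3 was highest, library 1 next and library 2 lowest for 5 of 5, an order shared by 21.7% of the genes tested and by 22.7% of the 2034 genes that were higher in synovium. The gap between libraries 1 and 2 differed by gene. For Calca, Ramp1 and Ednrb these libraries lay close together, whereas for Penk and Pcsk1 library 1 was well above library 2. The fibroblast marker sum put library 3 first as well, at 4502 normalized counts against 700 in library 1 and 465 in library 2, and its part in the order was not tested. Without library 3 the log2 fold change over arthritic node was 7.55 for Calca, 2.46 for Penk, 6.63 for Pcsk1, 1.36 for Ramp1 and 9.41 for Ednrb.

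**Figure D3:**
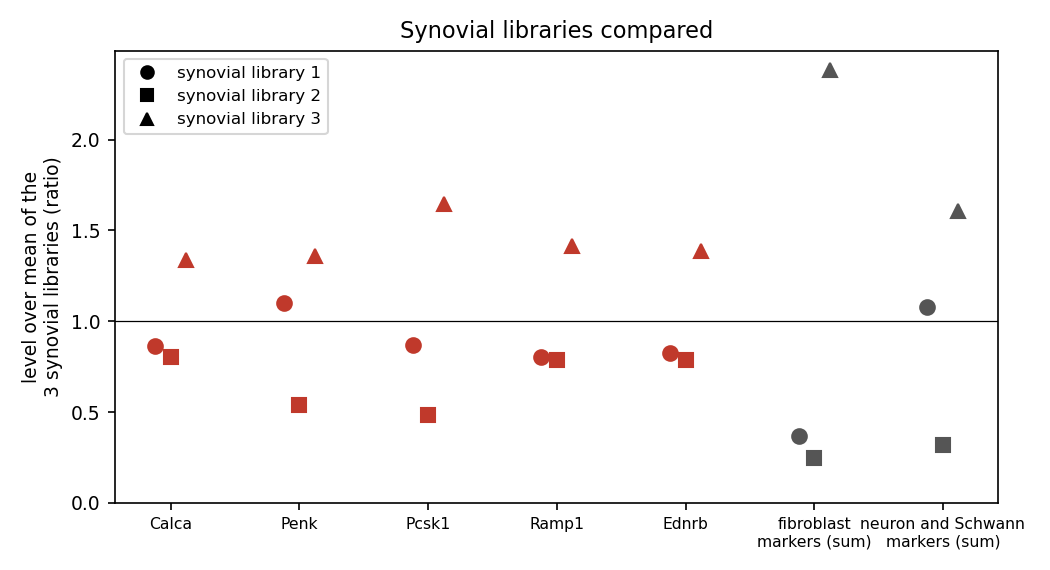
Level of each gene in the 3 synovial libraries divided by the mean of the 3 (ratio, linear axis from 0), beside the summed fibroblast and the summed neuron and Schwann cell markers. Library 3 is highest in every column, and the fibroblast sum shows the widest spread.

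Markers of cells in which these genes are better known, and of other cells of the joint, were summed in each library. Of 13 neuron and Schwann cell markers, 7 were at 0 in all synovial libraries, Tubb3, Snap25, Syt1 and Sox10 among them, and the summed level was 59.5, 17.6 and 88.8 normalized counts in synovium, against 13.0 to 92.1 in nodes. Of 8 melanocyte markers, Tyr, Dct, Tyrp1 and Sox10 were at 0 in synovium, and the sum was 472, 885 and 566 in synovium against 169 to 336 in nodes. Kit, on that list, was called higher over arthritic node, at 402, 835 and 523 in synovium and 14.4 to 55.2 in nodes, and Pmel was called lower, at 43.8 to 59.5 in synovium and 116 to 274 in nodes. Of 9 endothelial markers, Kdr, Emcn and Eng were at 0 in synovium, and the sum, nearly all of it Pecam1, was 1480, 1741 and 1499 in synovium against 2311 to 3370 in nodes. Summed mast cell and basophil markers were 213 to 278 in synovium and 22.1 to 110 in nodes, with 6 of 8 at 0 in synovium and Hdc called higher at 213 to 263, against 0 to 42.6 in nodes. Cpa3, the other marker tested, went the opposite way, at 4.41, 0 and 14.6 in synovium and 16.4 to 59.3 in nodes. It was called lower over control node and not called over arthritic node. Summed neutrophil markers were 38.6 to 125 in synovium and 0 to 25.0 in nodes, with Elane and Csf3r at 0 in synovium and Ltf called higher at 27.0 to 107, against 0 to 18.3 in nodes. Keratinocyte markers summed to 938 to 1193 in synovium and 315 to 391 in nodes, with Krt5 at 0 in synovium and near 0 in nodes. Sfn was called higher, at 704 to 955 in synovium and 84.9 to 233 in nodes, as was Perp, at 147 to 186 in synovium and 0 to 6.96 in nodes, while Krt10 was called lower, at 47.4 to 65.8 in synovium and 158 to 247 in nodes. Dendritic cell markers summed to 12966 to 15836 in synovium and 3099 to 5331 in nodes, with Clec9a and Itgax at 0 in synovium. Called higher on that list were Cd74, at 11868 to 14727 in synovium and 2987 to 5228 in nodes, Zbtb46, at 537 to 607 in synovium and 0 to 62.9 in nodes, and Xcr1, at 307 to 540 in synovium and 19.2 to 42.4 in nodes. Innate lymphoid and NK cell markers, a list that holds Ramp3, summed to 4976 to 8275 in synovium and 146 to 328 in nodes. Most of the synovial sum was Ramp3, at 4097 to 7575, and Kit is on the melanocyte list as well. Ncr1 was at 0 in synovium, and Ramp3, Kit and Il13 were called higher. Macrophage and monocyte markers summed to 103 to 359 in synovium and 164 to 1160 in nodes. Cd14 was called higher, at 66.3 to 196 in synovium and 0 to 14.9 in nodes, and Apoe lower, at 23.6 to 88.2 against 93.0 to 710. Chondrocyte, osteoblast and osteoclast markers summed to 1620 to 1797 in synovium and 1923 to 2744 in nodes. Of the 2 tested, Acp5 was called lower over arthritic node and the other was not called. Their median log2 fold change was 1.67, so the marker that was not called went the opposite way, higher in synovium. The part of the cells on these lists in the levels of Calca, Penk, Pcsk1, Ramp1 and Ednrb was not tested.

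Arthritis itself was compared in node Tregs, and none of the 5 genes passed the test. Calca averaged 9.18 normalized counts in arthritic node and 0 in control node, Ednrb 3.86 and 0, and Pcsk1 17.3 and 1.83. Calca, Ednrb and Pcsk1 passed the filter on the mean of the 9 libraries only through their synovial values. The arthritic-node libraries were also part of the contrast on which the 5 genes were chosen, so the p-values below are not free of that choice. limma, with Benjamini-Hochberg adjustment over all genes, called 0 of 5, against 0.343% of all genes (39 of 11357, with 0.335% higher and 0.00881% lower). At an unadjusted p under 0.05 limma listed 2 of the 5, Calca and Pcsk1, against 9.08% of all genes. edgeR and DESeq2, run on the recovered reads, also called 0 of 5, each with 3 of 5 at an unadjusted p under 0.05, against 8.27% of all genes by edgeR and 9.18% by DESeq2.

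Penk was higher in all 3 arthritic nodes than in all 3 control nodes, an arrangement seen for 7.89% of the genes tested. The closest pair was 1544 in an arthritic node and 1537 in a control node, and the log2 fold change of 0.59 ± 0.29 (SE) had an adjusted p of 0.596 (limma). Calca reads were present in 2 of 3 arthritic nodes and in 0 of 3 control nodes, at least 3.26-fold higher on average when the control is set at 3 reads per library (limma adjusted p = 0.446). Without arthritic-node library 1 the Calca difference passed, with a log2 fold change of 3.88 and an adjusted p of 0.0319 (limma). DESeq2 gave Calca an adjusted p of 0.0806 with all libraries.

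Pcsk1 had a log2 fold change of 2.55 ± 1.07 (SE) between arthritic and control node, with overlapping libraries and an adjusted p of 0.514 (limma). Ednrb had reads in 2 of 3 arthritic and 0 of 3 control nodes, an average at least 1.37-fold higher against 3 reads per library (limma adjusted p = 0.565). Ramp1 differed by 0.05 ± 0.22 (log2, SE), adjusted p = 0.98 (limma), and its sign changed without arthritic-node library 1 or control node library 1 or 3. Without control node library 1, which stood apart, 0 of 5 passed, with limma adjusted p from 0.57 for Calca to 1 for Ramp1.

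The other genes of these systems were followed through 9 lists of peptide precursors, receptors, processing, granule and degrading enzymes and cAMP signalling, 120 genes in all. No read was present for 31 of them, and 65 were abundant enough to test, at a mean of at least 10 normalized counts. In synovial over arthritic-node Tregs, 24 of the 65 rose and 10 fell by limma (52.3% called, against 33.8% of all genes, of which 17.9% rose and 15.9% fell), with a median log2 fold change of 0.38 against a median near 0 over all genes. Of all tissue calls 52.9% were higher, and 42.2% after quantile normalization. Over control node, 28 of the 65 rose and 13 fell (63.1% called), against 40.1% of all genes, of which 21.6% rose and 18.5% fell. Between arthritic and control nodes 0 of 65 passed limma, with 10 at an unadjusted p under 0.05, against 9.08% of all genes. edgeR called 1 (Fosb), against 37 of all genes, and DESeq2 called 3 (Crem, Nr4a2 and Fosb), against 173 of all genes.

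**Figure D4:**
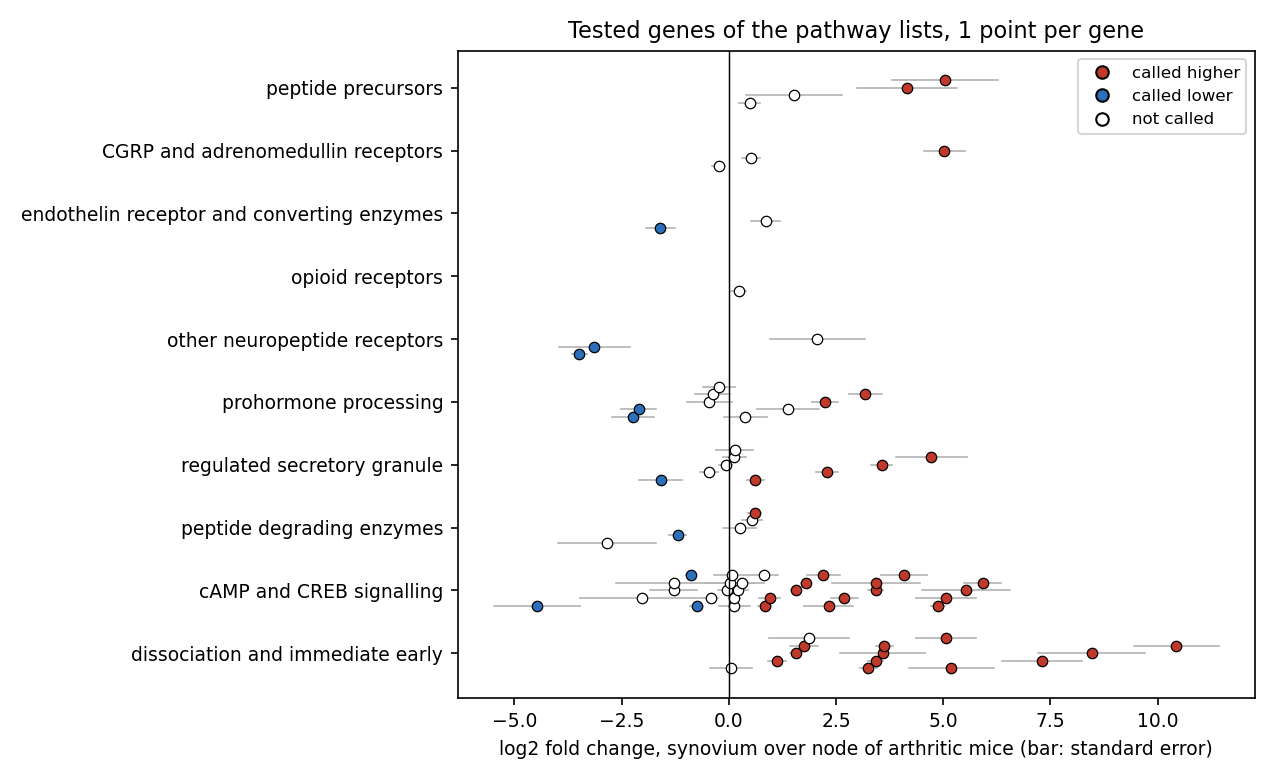
Log2 fold change of synovial over arthritic-node Tregs for each tested gene of the pathway lists, with the dissociation and immediate early list at the bottom; bars are standard errors and filled points passed limma at an adjusted p of 0.05. The cAMP and CREB list holds 14 higher and 3 lower genes, and the opioid receptor list 1 gene that was not called.

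On the CGRP side, the partner genes of Ramp1 were unequal. Ramp3, which directs Calcrl towards adrenomedullin, had 5515, 4097 and 7575 normalized counts in synovial Tregs, against 193, 158 and 159 in arthritic-node Tregs and 65.2, 129 and 21.9 in control-node Tregs. Ramp3 rose in synovium by 5.03 ± 0.48 (log2, SE) over arthritic node, with an adjusted p of 7.66e-06 (limma). Ramp2 had no read in any library. Calcrl, the receptor that pairs with Ramp1, was at 1023, 1164 and 736 in synovial Tregs, against 638, 730 and 635 in arthritic-node Tregs. The synovial libraries lay above those of arthritic node without overlap, an arrangement seen for 25.2% of the genes tested. The Calcrl difference of 0.52 ± 0.22 (log2, SE) had an adjusted p of 0.0826 (limma). Without synovial library 3 it was 0.71 with an adjusted p of 0.0258 (limma). With mice as a replicate block the adjusted p of Calcrl was 0.0404 (limma). Over control node Calcrl was higher by 0.91 ± 0.22 (log2, SE), with an adjusted p of 0.00547 (limma). Calcb, which encodes the second form of CGRP, was at 8.82, 0 and 0 in synovium and at 0, 4.81 and 0 in arthritic node, too low to test.

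Of 23 other peptide precursors, 12 had no read and 4 were tested, of which Npy and Adm rose, against 17.9% of all genes. Npy and Adm averaged at most 2.15 normalized counts in a node group. They passed the filter on the mean of the 9 libraries only through their synovial values, so these calls are not independent of the filter. Nmb, the neuromedin B precursor, was at 528, 380 and 451 in synovium and 358, 264 and 344 in arthritic node, and was not called (limma adjusted p = 0.14); Pomc, the precursor of endorphin and melanocortins, was at 25.3, 31.7 and 52.8 in synovium and 4.35, 14.4 and 22.7 in arthritic node, and was not called either (limma adjusted p = 0.328). Npy, the neuropeptide Y precursor, was at 25.3, 23.5 and 155 in synovium and at 2.61, 3.85 and 0 in arthritic node, with most of its reads in synovial library 3. Its log2 fold change of 4.16 ± 1.17 (SE) had an adjusted p of 0.0156 (limma), which became 0.0545 without arthritic-node library 3. Adm, the adrenomedullin precursor, was named after its values were seen. It was at 58.4, 8.22 and 64.1 in synovium and at 0 in all 6 node libraries, at least 16.1-fold higher than arthritic node at 3 reads per library (limma adjusted p = 0.00759).

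Among the enzymes around Pcsk1, Furin and Cpd rose and Pcsk4 and Scg5 fell, of 9 tested. Of all genes 17.9% rose and 15.9% fell, so nothing is read from these counts. Furin, a convertase of the constitutive pathway, had 1096, 971 and 2283 normalized counts in synovium and 138, 118 and 195 in arthritic node. Its log2 fold change was 3.18 ± 0.38 (SE), adjusted p = 5.03e-05 (limma), and the ratio within mice was 7.93, 8.21 and 11.7. Cpd, a carboxypeptidase that trims the basic residues left by convertases, rose by 2.24 ± 0.29 (log2, SE; limma adjusted p = 1e-04). Cpe, the carboxypeptidase of secretory granules, named after its values were seen, was at 108, 115 and 113 in synovium and 31.3, 33.7 and 73.4 in arthritic node, and did not pass (limma adjusted p = 0.166). Scg5, the chaperone of the related convertase Pcsk2, fell by 2.23 on the log2 scale (SE 0.48; limma adjusted p = 0.00367). Pcsk4, a convertase known from germ cells, fell by 2.10 (SE 0.41; limma adjusted p = 0.0017).

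**Figure D5:**
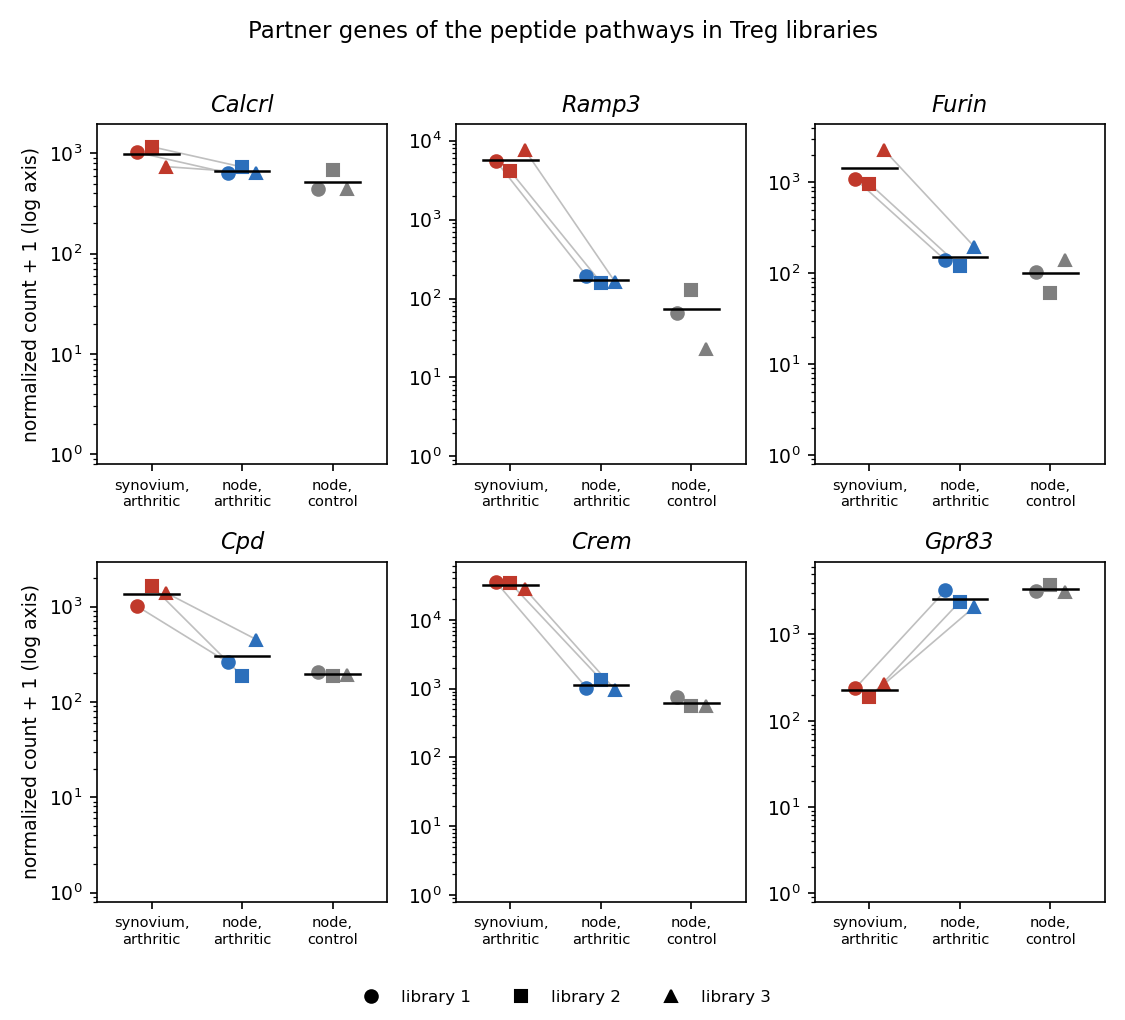
Normalized count plus 1 on a log axis for 6 partner genes in the 9 Treg libraries, from synovium and node of arthritic mice and node of control mice; bars are group means and grey lines join libraries numbered by the same mouse. Synovial points of Ramp3, Furin, Cpd and Crem lie above all node points, those of Gpr83 below all of them, and those of Calcrl close to the nodes.

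Genes of regulated secretion, through which peptides leave neuroendocrine cells, moved in part: 4 of 9 tested rose and 1 fell, against 17.9% and 15.9% of all genes. Stx11, a membrane-fusion protein of cytotoxic granule release, rose by 3.57 ± 0.24 (log2, SE; limma adjusted p = 4.75e-07). Sytl3 and Sytl2, synaptotagmin-like partners of Rab27, rose by 4.73 ± 0.84 and 2.30 ± 0.25 (log2, SE; limma adjusted p = 0.000964 and 2.69e-05). Rab27a rose by 0.62 ± 0.20 (log2, SE), adjusted p = 0.0283 (limma), a call lost without synovial library 1 or 3 or arthritic-node library 1 or 3, with adjusted p of 0.0676 to 0.101, and also with quantile normalization or without the trend. Rab3a, a vesicle GTPase of neurons, fell by 1.58 on the log2 scale (limma adjusted p = 0.0284), a call lost without synovial library 2 or 3 or any 1 arthritic-node library, with adjusted p of 0.0535 to 0.0837, and also with no filter or with mice as a replicate block (0.0566).

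Genes of the classical opioid receptor family were almost without reads in these Tregs. Oprk1 and Oprl1 had no read in any library, Oprm1 stayed at 3.01 normalized counts or less, and Oprd1 was seen in arthritic-node library 1 only, at 5.22. Ogfr, a receptor-like protein that binds enkephalin and shares no structure with the classical receptors, was at 790, 833 and 673 in synovium and 577, 781 and 609 in arthritic node, and was not called (limma adjusted p = 0.352). Of the enzymes that break peptides down, Mme, which cleaves enkephalins, had reads in synovial library 3 only, at 11.2. Dpp4 fell by 1.19 on the log2 scale (SE 0.20; limma adjusted p = 0.000552). Ide rose by 0.60 ± 0.15 (log2, SE; limma adjusted p = 0.00718), but had an adjusted p of 0.0553 after quantile normalization.

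For Ednrb, the ligands and the other receptor were near or at 0. Edn1, the precursor of endothelin-1, was at 7.71, 5.87 and 18.0 in synovium and at 0 in all 6 node libraries, Edn2 and Edn3 were at 0 in synovium and in arthritic node, and Ednra had no read in any library. The endothelin-converting enzymes went apart. Ece2 fell in synovium, with 90.4, 38.7 and 75.3 against 212, 172 and 205 in arthritic node, by 1.59 on the log2 scale (SE 0.35; limma adjusted p = 0.00364). Ece1 was at 345, 573 and 874 in synovium and 282, 297 and 342 in arthritic node, a log2 fold change of 0.86 ± 0.34 (SE) with an adjusted p of 0.0702 (limma). The Ece1 difference passed without synovial library 1 (adjusted p = 0.0179) and without control node library 1 (adjusted p = 0.0424), with mice as a replicate block (adjusted p = 0.0239), and by DESeq2 (adjusted p = 0.023).

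Of 3 tested receptors for other neuropeptides, 0 rose over arthritic node and Gpr83 and Vipr1 fell, against 17.9% and 15.9% of all genes. Gpr83, a receptor known as a Treg marker, was at 236, 186 and 264 in synovium and 3236, 2407 and 2093 in arthritic node, and fell by 3.48 on the log2 scale (SE 0.18; limma adjusted p = 5.77e-08). Vipr1, the receptor for vasoactive intestinal peptide, was at 22.0, 10.6 and 1.12 in synovium and 60.0, 114 and 54.2 in arthritic node (limma adjusted p = 0.0114, and 0.0536 without arthritic-node library 2). Nmur1, the neuromedin U receptor, was at 71.6, 55.2 and 97.8 in synovium and 6.96, 12.5 and 50.7 in arthritic node, and was not called (limma adjusted p = 0.177, and 0.038 with mice as a replicate block). Over control node Nmur1 rose by 4.92 ± 1.11 (log2, SE; limma adjusted p = 0.00391). Vipr2, another receptor for vasoactive intestinal peptide, was too low to test, at 25.3, 25.8 and 21.4 in synovium, 6.96, 0 and 0 in arthritic node and 0 in control node.

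Genes of cAMP and CREB signalling were listed because the CGRP receptor signals through cAMP. Of 29 tested, 14 rose in synovium and 3 fell, against 17.9% and 15.9% of all genes, with a median log2 fold change of 0.82. Those that rose included Pde4a, Pde4b, Pde4d and Pde8a, which encode phosphodiesterases that break down cAMP, and Prkar1a, a regulatory subunit of protein kinase A. The Pde4a call was lost without synovial library 2 or 3, without arthritic-node library 3 or without the trend (limma adjusted p of 0.0586 to 0.0794). Whether the CGRP receptor had a part in these differences was not tested. Crem, a transcription factor of the CREB family, had 35472, 34007 and 28151 normalized counts in synovium, against 1029, 1357 and 950.4 in arthritic node and 757, 568 and 552 in control node. Its log2 fold change over arthritic node was 4.88 ± 0.16 (SE), adjusted p = 3.2e-09 (limma). Between arthritic and control node Crem differed by 0.83 ± 0.16 (log2, SE), with an adjusted p of 0.0679 (limma), 0.00017 by DESeq2, and 0.042 by limma without control node library 1. Nr4a2 and Nr4a3, nuclear receptors induced by cAMP among other signals, rose by 5.93 ± 0.43 and 5.53 ± 1.03 (log2, SE; limma adjusted p = 8.19e-07 and 0.00136). Nr4a3 averaged 1.86 in arthritic node and 5.57 in control node and passed the filter only through its synovial values. The 3 genes that fell, named as the whole of that count, were Adcy6, Adcy7 and Prkacb, of which Adcy6 and Adcy7 encode cAMP-making cyclases and Prkacb a catalytic subunit of protein kinase A. Adcy6 was at 0, 8.22 and 0 in synovium and at 20.0, 81.8 and 56.8 in arthritic node (limma adjusted p = 0.00446).

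Immediate early genes, which enzymatic digestion of tissue is known to induce, were high in synovium. In a list of 14 dissociation and immediate early genes, 12 rose in synovium and 0 fell, against 17.9% and 15.9% of all genes (limma). The median log2 fold change of the list was 3.51. Atf3, Fosb, Hspa1a, Hspa1b and Ier3 averaged at most 15.4 normalized counts in a node group. They passed the filter on the mean of the 9 libraries only through their synovial values, so these calls are not independent of the filter. Fosb and Nr4a1 are on both this list and the cAMP list. The part of digestion in the levels of Calca, Penk, Pcsk1, Ramp1 and Ednrb was not tested.

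Likeness to the 5 genes was measured as the root mean square difference of centred log2 profiles over the 9 libraries, among 10560 genes, where 0 is the same profile. Ramp1 was matched most closely by Traf1 at 0.17, Zdhhc21 at 0.18 and Fam46c at 0.18, and Penk by Myadm at 0.24, Alox8 at 0.29 and Slc16a6 at 0.30. The genes with near-empty node libraries had looser matches. For Calca they were Cxcl2 at 1.14, Mt1 at 1.29 and Cdkn1a at 1.29; for Pcsk1 Zeb2 at 1.16, Npnt at 1.26 and Cxcl3 at 1.32. For Ednrb they were Hspa1a at 1.10, Irg1 at 1.23 and Gprc5a at 1.50. Hspa1a is on the dissociation list.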

How the data were processed

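RNA-seq libraries of sorted Tregs were analysed from a table that the authors deposited. The submitters' processing notes name mm10, HISAT2, HTSeq and DESeq2, without versions. The deposited values are normalized counts per gene (a signal unit: whole reads divided by a size factor of each library, per the steps in the values), and in every library 100% of values came out as whole reads within a tolerance of 0.01. The sum of reads per library, 11300406 to 12855435, limits the precision for low genes.

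Genes with a mean of at least 10 over the 9 libraries were tested on log2(value + 1) with limma 3.58.1 (trend, all 3 groups in 1 fit) in R 4.3.3, with Benjamini-Hochberg adjustment at 0.05. A gene near 0 in synovium or in nodes could pass this filter through the other tissue alone. The call of such a gene is not independent of the filter. A median log2 fold change of all genes is given as background. edgeR 4.0.16 and DESeq2 1.42.0 were run on the recovered reads. The limma fit of each comparison was tested on simulated data. The log2 fold change and its error in the authors' deposited table were read as synovium over arthritic node, because a DESeq2 rerun on 6 libraries differed from them by at most 1.4e-06 over 15134 genes. Its mean normalized counts, Wald score and p-values, deposited by the authors, were not used.

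The 5 genes and all lists were chosen with earlier results of these data known. List genes were named when called with a mean of at least 50 in a group, up to 5 per list by size, and exceptions are stated. The sample titles number synovial and arthritic-node libraries by the same mice, and deviations of same-numbered libraries from their group means correlated at 0.02 to 0.09 for these pairs, so the pairing rests on the titles. Control mice are other animals, so numbers do not pair them with arthritic mice. Replicates are separate mice, per the titles. Exon lengths and gene positions are from GENCODE vM21, promoters from RefSeq.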

Additional observations from a re-analysis of the deposited data

How the results depend on the processing

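The alternatives run were pseudocount, filter, scaling, trend, tool, replicate block and leaving out 1 library. They were followed for Calca, Penk, Pcsk1, Ramp1, Ednrb and the genes named by rule from the pathway and dissociation lists. For these genes no difference between synovium and a node group changed sign. Genes named from the cell type marker lists alone, such as Fn1, Sparc and Kit, were not followed through the alternatives. Of the values for these 5 genes over all 3 comparisons, 287 kept their call or stayed within the spread of replicates, 12 moved and 1 gained a call (Calca in nodes, without arthritic-node library 1). The movers were Calca, Ednrb and Pcsk1, with few or no reads in a node group, whose fitted size moved with the pseudocount, the tool or quantile normalization; Ednrb over arthritic node was 8.39 with a pseudocount of 5. The disease comparison was the unstable one: limma called 39 genes, 10 without the trend, 0 when only the 2 groups compared were fitted, 173 by DESeq2, and 0 to 64 when 1 library was left out. It gave 0 without arthritic-node library 2, 1 without arthritic-node library 3, 23 without control node library 2, 64 without control node library 3 and 24 without synovial library 1. The replicate block was fitted on the 2 groups compared; in the disease comparison, where the numbers do not pair mice, it gave 0, as the 2 groups without it did. Pathway genes higher in arthritic node numbered 0, but 1 with a pseudocount of 0.5, 1 without the trend, 1 by edgeR and 2 by DESeq2, which also gave 1 lower, and 0 to 1 when 1 library was left out (1 without control node library 1). Pathway genes lower in synovium than in control node numbered 13, and 7 to 12 when 1 library was left out (7 without control node library 3). The tissue comparison gave 3844 calls, 3759 when only the 2 groups were fitted and 3776 with the replicate block added to that fit. Among the genes named from the pathway lists, the block changed the calls of Calcrl, Ece1, Nmur1 and Rab3a. Quantile normalization moved the median of all genes to -0.12 (log2) and the higher share of tissue calls to 42.2%, against 52.9%. Node values of Calca, Pcsk1 and Ednrb rest on 0 to 31 reads per library.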
